A study of Homo sapiens with 24 samples.

Results

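Collagen chain genes encode the polypeptides that wind together, 3 at a time, into the triple helices of the extracellular matrix. The 42 genes described here are the non-control array targets whose name consists of COL, a type number, A and a chain number, with COL17A1 left out, among 44639 named targets. The set covers the fibrillar chains of types I, II, III, V, XI, XXIV and XXVII, which form the cable-like fibres of connective tissue. It also covers the type IV chains, which form the sheet-like network of basement membranes, the type VI chains, which form beaded microfibrils, and the fibril-associated, network, multiplexin and transmembrane types. Carcinoma cells make basement membrane chains themselves, while most fibrillar collagen in a tumour is made by fibroblasts. miR-29a belongs to a family of microRNAs that pair through a short seed with messenger RNAs, and transcripts of several collagen genes are well known targets of that family.

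Each of 24 two-colour arrays compared RNA of treated cells (red, Cy5) with RNA of control cells of the same line (green, Cy3), with 1 array for each treatment and line and no dye swap. The lines are the prostate cancer lines PC3, DU145 and LNCap, the renal cancer lines A498 and 786O, and the head and neck squamous carcinoma lines FaDu and SAS. The treatments were the soy isoflavone genistein in PC3 and DU145, the flavone wogonin in SAS and FaDu, and the chemokine CXCL10 in 786O for 12 and 24 h. Small interfering RNAs were directed at CAV2 (si-CAV2 in A498 and 786O), LAMB3 (si-LAMB3 in FaDu and SAS) and GOLM1 (si-GOLM1 in DU145 and PC3). Transfected microRNAs were miR-145 in PC3, DU145 and LNCap, miR-143 in DU145 and PC3, miR-375 in FaDu, miR-23b and miR-24 in PC3, miR-27b in PC3, 786O and A498, and miR-29a in SAS. Controls were labelled as untreated for genistein and CXCL10 (the study's methods describe a DMSO vehicle for genistein), DMSO for wogonin, control siRNA for the knock-downs and control miRNA for the microRNAs. These are established cell lines grown without stroma, and the labels give neither doses nor the microRNA arm. The miR-29a array and 15 others share a first array design on 2 slides, and the last 8, on a slide of their own, carry a second design.

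The mature sequences of the miR-29 family are shown because the seed, bases 2 to 8 in capitals, decides which transcripts a microRNA can pair with. They are from RefSeq (GRCh38.p14), where hsa-miR-29a-3p lies on the minus strand at chr7:130876748-130876769.
hsa-miR-29a-3p: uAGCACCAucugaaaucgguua
hsa-miR-29b-3p: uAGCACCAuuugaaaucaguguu
hsa-miR-29c-3p: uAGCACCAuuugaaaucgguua
hsa-miR-29a-5p: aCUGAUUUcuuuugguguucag
The 3p arms of miR-29a, miR-29b and miR-29c have the same seed, and no other name among 2370 mature microRNA names in that table has it. Of the 13 mature arms of the other transfected microRNAs, 0 carry it. The 5p arm of miR-29a has another seed, and which arm the SAS cells received is not given in the labels.

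On the siRNA arrays the log2 ratio (treated over control) of the targeted gene was -3.80 for CAV2 in A498 and -3.20 in 786O, -3.02 for GOLM1 in DU145 and -4.15 in PC3, and -2.50 for LAMB3 in FaDu. In SAS it was -0.89 for LAMB3, the smallest of the 6. Control RNA carried the squamous markers KRT5, KRT14 and DSG3 in every channel of FaDu and SAS, while TP63 missed the background limit in 1 of 3 SAS channels. A498 had all 4 renal markers (PAX8, PAX2, CDH6 and CA9), and 786O had PAX8, PAX2 and CDH6. Of 6 fibroblast markers, 1 was above background in all SAS channels (FAP, mean log2 signal 11.2) and 0 in all channels of FaDu or PC3. In PC3 of the first design PDGFRA was above background in 4 of 5 channels and LUM in 3 of 5, against 0 of 2 each on the second. PC3 also differed between the designs in CDH1 (mean log2 signal 8.41 and 12.27) and KRT14 (above background in 0 of 5 and 2 of 2 channels), and the part of these differences in the PC3 comparisons was not tested. The 3 PC3 control channels of slide 2 differed from each other by an SD of 0.191 to 0.200 (log2, over 17050 probes) against 0.533 to 0.632 for PC3 channels across treatments, and were averaged as 1 sample. One 786O control channel of the second design, that of the miR-27b array, stood apart, with an SD of 0.862 and 0.959 against both CXCL10 control channels, which differed from each other by 0.419 (20499 probes).

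A gene counted as measured on an array where either channel of its brightest probe passed the scanner software's limit for a signal well above background. Of the 42 collagen genes, 36 were measured on at least 1 array of the first design and 34 on the second, 5 were measured on neither, and 17 and 20 were measured on all arrays of the respective design. COL3A1, COL11A1, COL15A1, COL25A1, COL6A5 and COL6A6 did not rise above background on any first-design array. Single arrays measured 22 to 32 collagen genes.

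On the miR-29a array 7 of the 26 measured collagen genes had a log2 ratio below -1, a level less than 50% of the control, and 0 were above 1. Among all 21559 measured genes of that array, 3.63% were below -1 and 6.91% above 1. Of the 26 genes, 22 lay below 0, a count for which the share of all genes was not computed. Among the 22, COL1A1, COL27A1, COL10A1 and COL23A1 lay at -0.04 to -0.01. The median log2 ratio of the 26 was -0.52, against 0.08 for all genes. The value rests on 1 array, so the counts have no replicate check. COL6A1 was the last gene past the limit at -1.10 and COL4A5 the first inside it at -0.96.

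The basement membrane chains were the class with most genes past the limit. All 5 measured type IV genes were below 0 (range -1.78 to -0.86, median -1.24), and 3 of them were below -1. One of the 3, COL4A4, moved from -1.24 to -0.47 with normexp or without background correction. Of 11 fibrillar genes 5 were measured, with 2 below -1 and a median of -0.17. Both measured type VI genes were below 0, COL6A1 at -1.10 and COL6A2 at -0.59. Among 7 measured fibril-associated genes 1, COL12A1, was below -1, and the class reached up to 0.73 with a median of -0.13. COL1A1, the main chain of type I collagen, had no control signal above background on the miR-29a array, so its ratio of -0.04 (software error 0.57) is set by a dim control. COL7A1, the anchoring fibril chain of skin and mucosa, stood at -0.19.

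**Figure D1:**
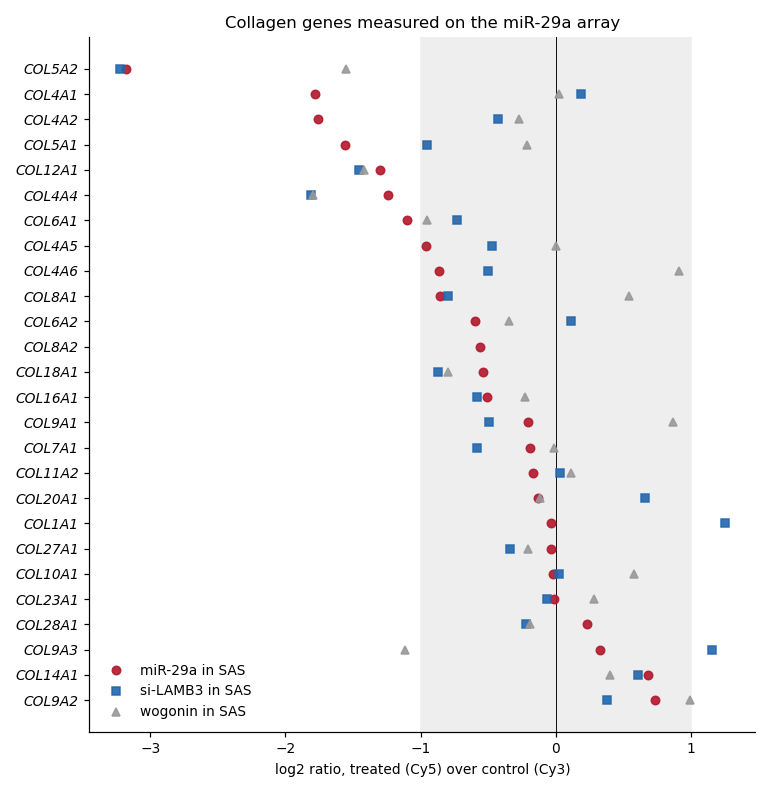
Log2 ratio of treated over control RNA (horizontal axis) for the 26 collagen genes measured on the miR-29a array, with the same gene on the si-LAMB3 and wogonin arrays of SAS (1 array each, no error bars; the grey band spans -1 to 1). COL4A1 and COL4A2 lie at -1.78 and -1.76 with miR-29a and inside the band on both other arrays, whereas COL5A2 and COL12A1 lie below -1 on all 3.

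SAS cells were also profiled after si-LAMB3 and after wogonin, each against its own control, and the 7 genes divided on those arrays. COL4A1 and COL4A2 encode the 2 chains of the most widespread basement membrane collagen. COL4A1 had a log2 ratio of -1.78 (error of the scanner software 0.26) with miR-29a, 0.19 with si-LAMB3 and 0.03 with wogonin. COL4A2 had -1.76 (software error 0.26), -0.42 and -0.27 on the same arrays. Of the 3 SAS arrays, both genes were low on the miR-29a array alone. COL5A1, a chain of the type V collagen that starts fibril assembly, had -1.56 (software error 0.25), -0.95 and -0.21 with its brightest probe. By that probe the si-LAMB3 value lay between the others. Its other probes gave -1.55, -1.28 and -0.14, and -0.56, 0.21 and -0.13, so the order differed between probes.

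The other 4 lay between -3.23 and -0.73 on all 3 SAS arrays. COL5A2, the partner chain of COL5A1, had -3.18 (software error 0.36) with miR-29a, -3.23 with si-LAMB3 and -1.55 with wogonin. COL12A1, a fibril-associated chain, had -1.30 (software error 0.24), -1.46 and -1.42. COL4A4, a type IV chain known from the kidney glomerulus, had -1.24 (software error 0.42), -1.81 and -1.79. For COL6A1, a type VI chain, the values were -1.10 (software error 0.23), -0.73 and -0.95. Thus 3 collagen genes (COL5A2, COL12A1 and COL4A4) were below -1 on all 3 arrays by their brightest probe. They were 3 of 24 measured on all 3, against 0.506% of all genes. The other probe of COL12A1 gave -0.63 with miR-29a, -0.90 with si-LAMB3 and -1.43 with wogonin. COL4A4 had -0.47 on the miR-29a array with normexp or without background correction. The genes more than 1 below both other SAS arrays were COL4A1 and COL4A2, 2 of 24, against 1.92% of all genes. The 3 arrays used different controls (control miRNA, control siRNA and DMSO), lie on 1 slide, and more spots were above background in the red than in the green channel on that slide (64.6 to 66.9% against 55.0 to 59.2%). The part of these differences in the ratios was not tested.

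Each ratio was also read as its 2 signals. The log2 signal of COL4A1 in the 3 SAS control channels was 10.66 (si-LAMB3 array), 10.11 (wogonin) and 11.05 (miR-29a), and in the treated channels 10.85, 10.14 and 9.27. For COL4A2 the control channels gave 14.28, 13.99 and 14.46 and the treated channels 13.86, 13.72 and 12.70. For both genes the miR-29a array had the highest control signal and the lowest treated signal of the 3. COL5A2 differed in this respect. Its control signals were 12.29, 11.48 and 10.26 and its treated signals 9.06, 9.92 and 7.07, so the miR-29a array had the lowest signal in both channels. COL5A1 did likewise, with control signals of 11.72, 11.88 and 11.18 and treated signals of 10.77, 11.67 and 9.62. For COL12A1 the treated signals of 10.55, 10.91 and 10.30 spanned less than the control signals of 12.01, 12.33 and 11.60. In cultures measured in bulk, fewer cells that make a chain and less RNA per cell cannot be told apart.

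**Figure D2:**
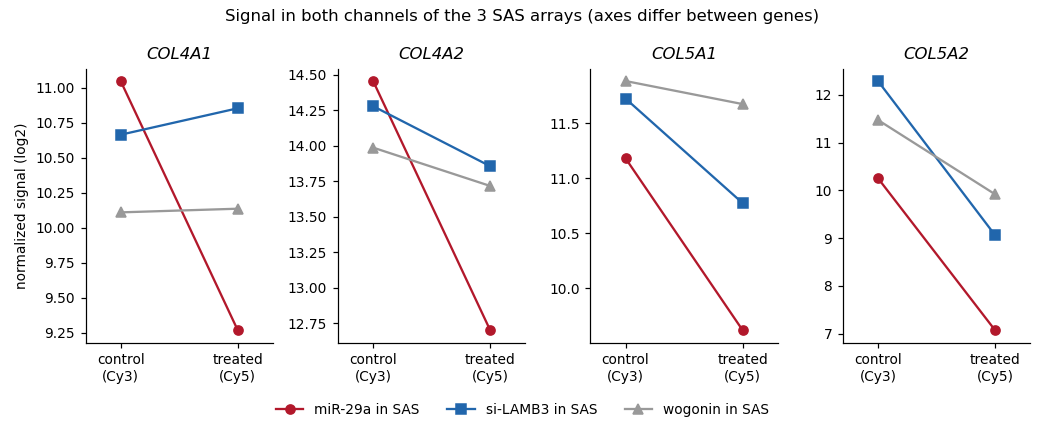
Normalized log2 signal of control (Cy3) and treated (Cy5) RNA on the 3 SAS arrays for COL4A1, COL4A2, COL5A1 and COL5A2 (1 channel per point; vertical axes differ between genes and do not start at 0). For COL4A1 and COL4A2 the line of the miR-29a array is the steep one, ending at 9.27 and 12.70, while for COL5A2 all 3 lines slope down.

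COL4A1 and COL4A2 had nearly the same log2 ratio on the miR-29a array, and 0.19 and -0.42 on the si-LAMB3 array of SAS. They lie head to head and share a promoter, whose part in these ratios was not tested. The window around the COL4A2 start (250 bases before it to 50 after it, RefSeq, GRCh38.p14, plus strand, chr13:110307034-110307333) is shown for this shared position, with the 126 bases between the starts of both genes in capitals. COL4A1 is read leftwards from that stretch and COL4A2 rightwards.
COL4A1/COL4A2 window: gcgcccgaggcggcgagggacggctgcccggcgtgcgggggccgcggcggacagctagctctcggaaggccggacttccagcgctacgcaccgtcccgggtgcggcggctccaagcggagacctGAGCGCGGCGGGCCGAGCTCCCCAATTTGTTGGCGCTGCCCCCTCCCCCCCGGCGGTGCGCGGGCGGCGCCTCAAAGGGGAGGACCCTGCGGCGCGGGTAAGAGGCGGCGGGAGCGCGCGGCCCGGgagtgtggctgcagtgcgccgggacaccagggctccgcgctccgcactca
The window holds 1 GGGCGG on either strand, a motif found in 45.0% of 35116 promoter windows of that length, and 1 CCAAT (34.6% of windows). It holds 0 copies of TATAAA (11.5% of windows). These are matches of letters and not sites of binding. The array probe of COL4A1 lies at chr13:110802347-110802406 (minus strand) and that of COL4A2 at chr13:111165261-111165320 (plus strand) in the hg19 coordinates of the array annotation. The probe of COL5A2 lies at chr2:189897429-189897488 (minus strand, hg19). Each of these 3 genes has 1 probe.

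Across the other 15 arrays of the first design COL4A1 ranged from -0.18 (genistein in PC3) to 1.04 (miR-24 in PC3) with a median of 0.26, and on the 8 arrays of the second design from -0.13 to 0.41. COL4A2 ranged from -0.42 (si-LAMB3 in SAS) to 1.28 (miR-145 in LNCap) with a median of 0.11, and from 0.01 to 0.20 on the second design. For both genes the miR-29a value lay outside the range of all 23 other arrays. They were the only ones among 24 collagen genes ranked for which the miR-29a array was the lowest of the first design, 2 of 24, against 3.76% of all genes. COL5A2 ranged from -3.23 (si-LAMB3 in SAS) to 1.504 (wogonin in FaDu) and was below -1 on 5 of those 15 arrays. COL5A1 had its lowest value, -2.17, with miR-375 in FaDu, and its highest, 1.12, with genistein in PC3. For COL6A1 the lowest value was -1.40 with miR-24 in PC3.

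**Figure D3:**
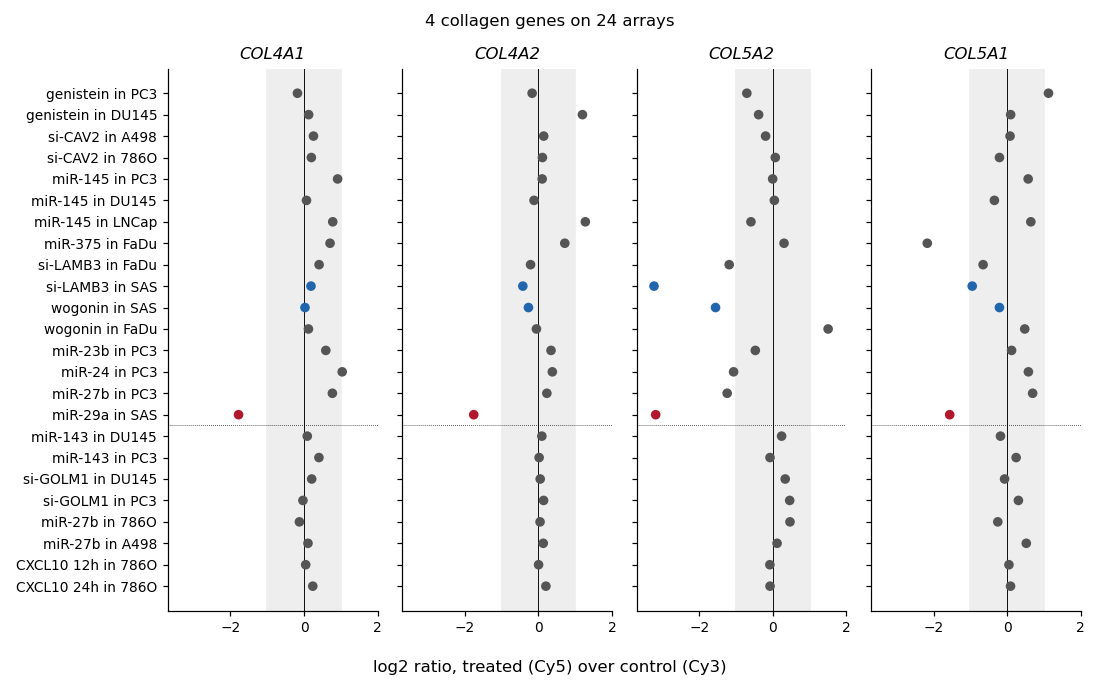
Log2 ratio of treated over control RNA for COL4A1, COL4A2, COL5A2 and COL5A1 on each of the 24 arrays (1 point per array; grey band -1 to 1; red, miR-29a; blue, the other SAS arrays; the dotted line divides the first design, above, from the second). The miR-29a points of COL4A1 and COL4A2 are the lowest of all 24, and for COL5A2 the si-LAMB3 point in SAS is lower, at -3.23.

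The miR-29a array was then tested against the mean of the other 15 arrays of its design with limma, taking the lone array to vary as the others do. At a Benjamini-Hochberg adjusted p of 0.05, 0 of the 26 collagen genes were called in either direction. Of all 20810 genes, 0.0240% were called lower and 0.00961% higher. At an unadjusted p under 0.05 the collagen genes numbered 3 of 26 (11.5%), all of them lower, and all genes 675 (3.24%). COL4A1 was lower than the mean of the others by a log2 difference of -2.18 (SE 0.39, limma adjusted p = 0.067), COL4A2 by -1.97 (SE 0.51, adjusted p = 0.42) and COL5A2 by -2.60 (SE 1.004, adjusted p = 0.9999). The median difference was -0.40 for the collagen genes and 0.05 for all genes. COL4A1 passed the limit under 4 other settings, with an adjusted p of 0.014 after normexp background correction, 0.018 without background correction, 0.018 without the filter on dim probes and 0.025 with each treatment as its own group. Over all settings its adjusted p ranged from 0.014 to 0.67, the latter on the arrays of 1 slide alone.

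Where several probes of a gene were measured on the miR-29a array, they did not always go together. Of 7 collagen genes with more than 1 measured probe, 3 had probes of opposite sign and 3 had probes more than 1 apart. The 3 probes of COL5A1 gave -1.56, -1.55 and -0.56, all below 0, and both probes of COL12A1 did so at -1.30 and -0.63. COL9A2, a fibril-associated chain of cartilage, gave 0.73 with its brightest probe and -2.84 with the other, and COL11A2, a fibrillar chain of cartilage, ranged from -0.17 to 0.90 over 3 probes. COL4A4 and COL6A1 have 1 probe each.

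Collagen chains are modified, folded and cross-linked by a dedicated set of enzymes and chaperones, and 24 of 31 listed genes of that machinery were measured on the miR-29a array. Of them 5 were below -1 (3.63% of all genes) and 0 above 1 (6.91%), with a median of -0.43. LOXL2, a collagen cross-linking oxidase, had -2.42 with miR-29a, -1.29 with si-LAMB3 and -1.03 with wogonin. LEPREL1, a prolyl 3-hydroxylase, had -1.70, -2.20 and -1.23, so both genes were low on all 3 SAS arrays. The other 3 were low with miR-29a alone. SERPINH1, the collagen chaperone HSP47, had -1.67, -0.06 and -0.44. The cross-linking oxidase LOX had -1.52, 0.26 and -0.18, and BMP1, the procollagen C-proteinase, -1.17, 0.21 and -0.17. With limma 0 of the 24 were called in either direction.

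A second list held 23 genes reported as miR-29 targets besides the collagens, of which 20 were measured, 8 were below -1 (3.63% of all genes) and 0 above 1 (6.91%), with a median of -0.86. SPARC, a collagen-binding matrix protein, had -3.22 with miR-29a and -2.85 with si-LAMB3, against -0.43 with wogonin. The laminin chain LAMC1 (-1.71, -1.22 and -0.65) also passed -1 with si-LAMB3. By contrast the DNA demethylation genes TET2 (-2.36, 0.02 and -0.98) and TDG (-1.11, 0.62 and -0.08), the cell cycle kinase CDK6 (-2.16, 0.12 and 0.50) and the integrin ITGA6 (-1.62, -0.44 and -0.06) were below -1 with miR-29a alone. HBP1, a transcriptional repressor, had -1.10, -0.07 and -2.69. None of the 20 passed the limma limit, and the smallest adjusted p was that of TET2 (limma, 0.10).

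Genistein in PC3 gave the largest share of collagen genes below -1 of any array, slightly above that of miR-29a in SAS. In PC3, 8 of 29 were below -1 (7.24% of all genes) and 4 above 1 (10.4%), and in DU145 5 of 29 were below (6.86%) and 2 above (5.73%). The PC3 array also had the lowest median over collagen genes of any array, -0.69, and was the one array below the miR-29a median. Among 26 genes measured in both lines, 4 were below -1 in both, against 1.49% of all genes. These were COL4A6 (-2.85 in PC3 and -1.80 in DU145), a type IV chain of epithelial and smooth muscle basement membranes, COL21A1 (-2.82 and -3.77), COL27A1 (-2.19 and -1.06) and COL1A1 (-1.14 and -1.73). The 2 DU145 control channels of the first design differed for COL21A1 (7.13 and 1.80) and COL4A6 (4.22 and 2.55). For each of these 2 genes 1 of the 2 channels was above background. For COL1A1 the lower of the 2 channels was 4.65 and the higher 7.25, both above background. COL16A1, a fibril-associated chain, had the highest value in PC3, 2.20, and COL4A2 and COL12A1 had 1.20 each in DU145.

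The 3 microRNAs transfected in PC3 on slide 2 had collagen genes on both sides. With miR-23b 4 of 30 were below -1 (4.94% of all genes) and 8 above 1 (6.53%). With miR-24 the counts were 4 and 7 of 31 (11.0% and 14.7%), and with miR-27b 5 and 7 of 32 (5.01% and 8.90%). COL9A3, a cartilage chain, was above 1 on all 3 (2.02, 1.79 and 1.73), with control signals above background. COL8A2, a network chain, also passed 1 on all 3, but its control signal was not above background on any of them, while its treated signals of 5.12, 4.77 and 4.18 were. COL16A1 reached 3.05 with miR-24, while COL24A1 was lowest with miR-23b (-2.86), and COL4A6 with miR-24 (-3.97). COL22A1 had -4.18 with miR-27b, over a control signal of 6.76 against 2.11 and 2.09, not above background, in the control channels of miR-23b and miR-24. The control channels of these arrays, all labelled as control miRNA, differed by less than other PC3 control channels. They may be 1 RNA, which the labels do not say, and the values are set side by side without a test.

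With miR-375 in FaDu 5 of 26 were below -1 (12.4% of all genes) and 1 above 1 (10.2%). The 5 included COL1A1 (-2.52), COL5A1 (-2.17) and COL7A1 (-1.58), and COL9A3 was the gene above, at 2.49. In PC3 with miR-145, 3 of 27 were below (5.63%), led by COL6A3 (-1.63), and COL8A1, a network chain of vessel walls and cornea, was the 1 above, at 2.77 (8.30%). In LNCap 0 of 22 were below (2.29%) and 3 above (6.68%), COL16A1 (2.49), COL9A3 (1.31) and COL4A2 (1.28).

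The laminin chain LAMB3 is another basement membrane component, and its knock-down was profiled in both squamous lines. In FaDu 3 of 25 collagen genes were below -1 (4.14% of all genes) and 0 above 1 (6.56%), and in SAS 3 of 26 were below (6.53%) and 2 above (8.11%). COL5A2 (-1.18 in FaDu and -3.23 in SAS) and COL12A1 (-1.07 and -1.46) were below in both lines by their brightest probe, 2 of 24, against 1.61% of all genes. COL5A2 was dim in FaDu, where 2 of 3 control channels were above background and their log2 signals ranged from 3.98 to 6.38. The other probe of COL12A1 gave -0.90 in SAS. COL8A1 had the lowest value in FaDu, -1.20, and COL1A1 the highest in SAS, 1.25, over a control signal not above background. With wogonin in SAS 5 of 27 were below (5.51%) and 1 above (8.66%), COL4A4 being the lowest (-1.79). COL5A3, a further type V chain, was the 1 of 24 above 1 on both wogonin arrays (2.22% of all genes), with control signals that were not above background and treated signals of 4.30 in SAS and 4.10 in FaDu that were.

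The remaining 12 arrays, among them all 8 of the second design, each had at most 1 collagen gene below -1 and at most 2 above 1, which made 7 below and 5 above of 322 measured values. Their shares of all genes were 1.12 to 2.90% below and 0.597 to 8.05% above. COL24A1, a fibrillar chain, accounted for 4 of the 7 low values. They came with miR-145 in DU145 (-1.89), si-GOLM1 in PC3 (-1.55) and CXCL10 in 786O at 12 h (-1.42) and 24 h (-1.64). COL24A1 was also the lowest collagen gene with si-CAV2 (-0.84 in A498, -0.93 in 786O) and miR-143 (-0.82 in DU145, -0.90 in PC3). The same held with miR-145 in LNCap (-0.95), while in SAS it had 0.87 with si-LAMB3 and 0.33 with wogonin. Its 1 probe was dim, with mean control signals of 4.88 in 786O and 5.33 in PC3 on the second design. The part of the probe or dye in these values was not tested. COL6A3 had -3.84 with si-GOLM1 in DU145. The 2 DU145 control channels of that design were 5.42 and 1.49 for this gene, and 1 of them was above background. The miR-143 and si-CAV2 arrays had 0 collagen genes past the limit in either direction. Collagen genes and lines named here beyond the extremes of each array were chosen after their values were seen.

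**Figure D4:**
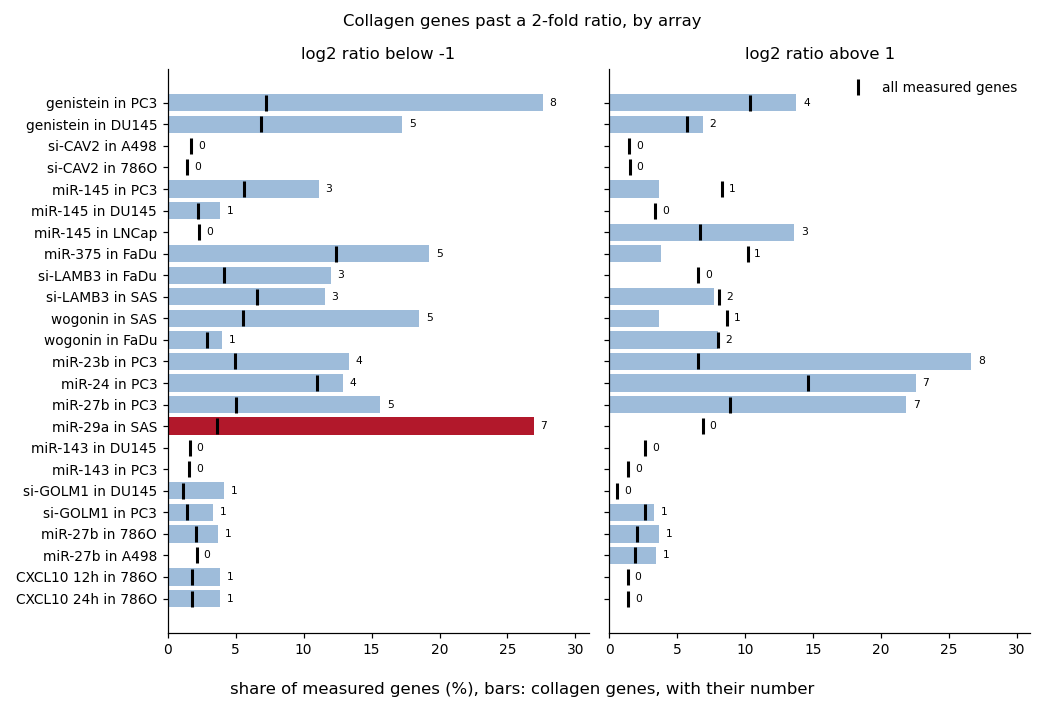
Share of measured collagen genes (bars, with their number) with a log2 ratio below -1 (left) or above 1 (right) on each of the 24 arrays, in percent, beside the share of all measured genes (black ticks); red marks miR-29a in SAS. The miR-29a bar of 7 genes stands far above its tick on the left and is empty on the right, and the 8 arrays of the second design, at the bottom, have at most 1 gene on either side.

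The control channels show which collagen genes the lines express untreated or mock treated. On the first design the mean log2 signal of COL4A1 was highest in A498 (11.40, 1 channel) and 786O (10.68, 1 channel). Then came SAS (10.61 ± 0.47, SD, n = 3), PC3 (8.21 ± 0.59, n = 3), DU145 (7.29 ± 0.25, n = 2) and FaDu (6.97 ± 0.38, n = 3). LNCap was lowest (4.50, 1 channel). SAS and 786O differed by less than the SD of SAS, and the DU145 and FaDu channels overlapped. The spread of A498, 786O and LNCap is not known from 1 channel. The second design gave the 2 renal lines in the other order, 786O at 10.59 ± 0.51 (n = 3) and A498 at 9.79 (1 channel). COL4A2 followed on the first design with 15.16 in A498, 14.24 ± 0.24 in SAS and 14.03 in 786O at the top and LNCap at the bottom. COL5A1 was highest in A498 (13.89) and SAS (11.59 ± 0.37), and COL5A2 in PC3 (12.40 ± 0.79) and SAS (11.34 ± 1.02). SAS, the line that received miR-29a, was among the higher lines for each of these 4 genes.

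**Figure D5:**
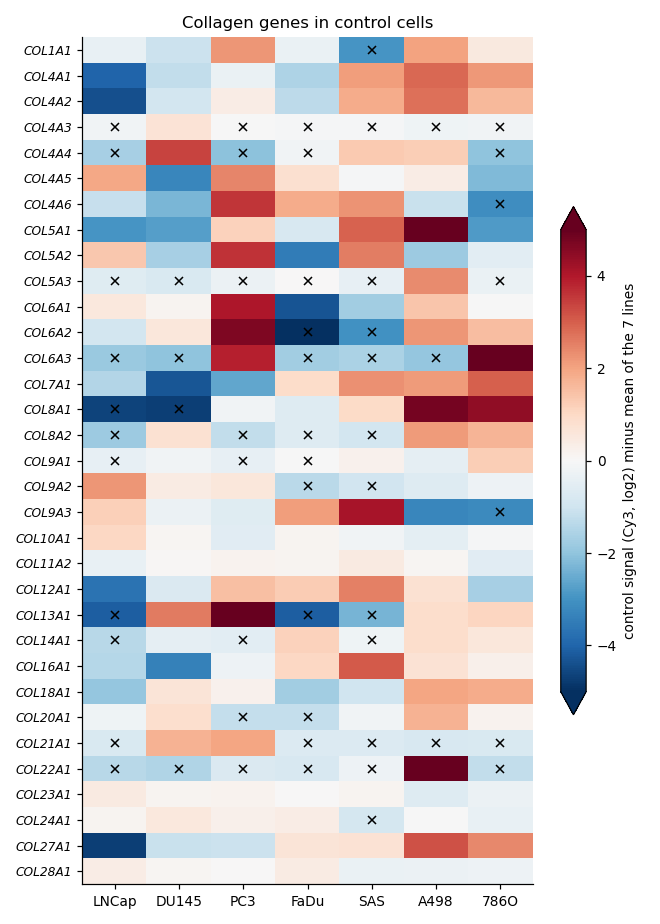
Control signal (Cy3, log2) of each collagen gene in 7 lines of the first design, as the difference from the mean of the 7 lines (colour; n = 3 averaged samples for PC3, FaDu and SAS, 2 for DU145, 1 for the others). Crosses mark lines in which fewer than 50% of the channels were above background. LNCap is low for COL4A1 and COL4A2, PC3 is high for COL6A1, COL6A2 and COL13A1, and A498 and 786O are high for COL8A1.

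Control RNA of SAS and FaDu was compared with limma, and 11 of 24 tested collagen genes differed. In SAS 8 were higher (11.7% of all genes) and 3 lower (13.0%), with a median difference of 0.87 against -0.01 for all genes. A gene was tested where either line had at least 50% of its channels above background, so a gene above background in one line only is tested because it is high there. Those above background in both numbered 18, of which 7 were higher and 0 lower. Shares of all genes above background in both lines were not computed, for this or the other pairs of lines. COL5A2 had log2 signals of 12.29, 11.48 and 10.26 in SAS and 6.38, 5.43 and 3.98 in FaDu, the last not above background, a difference of 6.08 (SE 0.68, limma adjusted p = 1.9e-04). COL4A1 gave 10.66, 10.11 and 11.05 in SAS and 7.09, 7.28 and 6.55 in FaDu (difference 3.63, SE 0.36, adjusted p = 8.7e-05). COL4A2 gave 14.28, 13.99 and 14.46 against 10.73, 11.80 and 10.78 (difference 3.14, SE 0.34, adjusted p = 1.5e-04). For these genes no SAS channel overlapped a FaDu channel. COL5A1 was higher by 3.73 (SE 0.49), COL6A1 by 2.57 (SE 0.33) and COL16A1 by 1.999 (SE 0.38). On the other side COL1A1 was lower by a difference of -2.60 (SE 0.78, adjusted p = 0.037) and COL14A1 by -1.38 (SE 0.29, adjusted p = 0.0072). COL1A1 was not above background in any of the 3 SAS channels, and its call was lost in 8 of the other settings. One of these, the experiment as a block, also lost COL16A1 (limma adjusted p = 0.078) and left COL14A1 as the 1 gene called lower. P-values here measure the spread between control channels, which may be technical.

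SAS and PC3 differed in 18 of 28 tested collagen genes, 9 higher in SAS (19.3% of all genes) and 9 lower (19.6%). Among the 18 above background in both lines 7 were higher and 3 lower. The type VI chains and the transmembrane chain COL13A1 had the largest negative fitted differences. Of these genes COL6A1 alone was above background in both lines. COL6A1 was 10.94 ± 0.30 (SD, n = 3) in SAS and 16.72 ± 0.16 (n = 3) in PC3, a difference of -5.78 (SE 0.33, limma adjusted p = 1.1e-06). COL6A2 had a fitted difference of -7.70 (SE 0.50) and COL13A1 of -8.34 (SE 0.55), both above background in 1 of 3 SAS channels. Their mean SAS signals, 4.95 and 4.09, include channels not above background, so the size of these differences is uncertain. COL6A3 and COL1A1 were not well above background in any SAS channel, which puts PC3 at least 20.1-fold and 35.8-fold higher (fitted differences -5.47 and -5.17). COL13A1, COL6A2, COL6A3 and COL1A1 were tested because they were above background in PC3, so they could only come out lower in SAS. On the other side COL7A1 was higher in SAS by 4.87 (SE 0.32) and COL9A3 by 4.71 (SE 0.75). COL4A4, not well above background in PC3, was at least 5.72-fold higher in SAS (fitted difference 3.33), and COL4A1 was higher by 2.40 (SE 0.36, limma adjusted p = 6.1e-04). A fold given as at least is the bright line's mean over the lowest signal that counted as above background, or over the dim probe's own where that is higher.

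DU145 and PC3 could be compared on both array designs, on separate arrays that carry the same probe for most collagen genes. Most of the called chains had the lower signal in DU145. On the first design 2 of 31 were higher (11.8% of all genes) and 14 lower (10.4%), and on the second 1 of 30 higher (8.65%) and 8 lower (9.26%). The 8 fell to 4 with any 1 channel of either line left out, and to 5 after 75th percentile scaling. With both lines above background the counts were 0 higher and 12 lower on the first design, and 0 and 5 on the second. Of 30 genes tested in both, 7 were called in both, all in the same direction, and 25 had the same sign. The shares of all genes called in both designs, or with the same sign, were not computed, so these counts have no baseline. COL5A2 was 7.41 and 6.84 in DU145 against 12.29, 11.68 and a mean of 13.24 in PC3 (difference -5.28, SE 0.76, limma adjusted p = 9.1e-04), and 5.34 and 5.62 against 9.38 and 8.47 on the second design (-3.44, SE 0.85, adjusted p = 0.042). COL4A5 differed by -5.71 (SE 0.66) on the first design and was at least 32.4-fold lower on the second. COL4A6 differed by -5.86 (SE 0.66) and was at least 5.62-fold lower on the second. COL8A1 was not well above background in DU145 on either design, at least 19.5-fold and 23.2-fold lower. Of the type VI chains, COL6A3 was at least 37.7-fold lower on the first design, but on the second it was above background in 1 of 2 channels of each line and differed by -0.43 (limma adjusted p = 0.88). COL6A1 differed by -3.93 (SE 0.37) on the first and by -1.41 on the second (adjusted p = 0.14), and COL6A2 by -4.10 (SE 0.56) and -2.50 (adjusted p = 0.036). COL4A4 ran the other way, at 8.86 and 7.73 in DU145 and below background in all 5 PC3 channels, at least 24.5-fold higher, and at least 13.7-fold higher on the second design.

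In 786O, compared with PC3 on the second design, 6 of 28 collagen genes were higher (12.6% of all genes) and 5 lower (11.8%). Among the 25 above background in both lines 5 were higher and 3 lower. COL7A1 was higher by 5.29 (SE 0.88, limma adjusted p = 0.0097), COL27A1 by 4.15 (SE 0.37), COL8A1 by 3.39 (SE 0.68) and COL18A1, the source of endostatin, by 2.73 (SE 0.39). COL8A2, not well above background in PC3, was at least 7.42-fold higher. COL9A3 was lower, by a difference of -3.97 (SE 0.28), and COL4A6, not well above background in any 786O channel, was at least 5.52-fold lower. COL13A1 differed by -7.27 (SE 1.59, adjusted p = 0.024), with 786O signals of 7.60 in the control of miR-27b and 1.88 and 3.84, not above background, in the CXCL10 controls. The channel of 7.60 is the one that stood apart, and without it 9 genes were higher and 12 lower. Counts with a channel left out, here and for DU145, are given without shares of all genes. They show only how far the reported numbers move. With either PC3 channel left out the counts were 2 higher and 3 lower.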

How the data were processed

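Established cancer cell lines were profiled on Agilent two-colour arrays. The authors deposited the output of Agilent Feature Extraction 10.7.3.1, which had subtracted background and normalized dyes. The deposited log ratio is the log10 of Cy5 over Cy3 and was converted to log2. The deposited intensity values per spot and channel (processed signals) gave the levels, after Aquantile normalization. The value table the authors deposited matched these log ratios exactly. Coordinates of probes are hg19, from the array annotation.

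Control spots and outlier spots were left out, no spot was saturated, and spots of a probe were averaged. Of 58717 non-control spots per array, 53.2 to 67.6% (Cy3) and 54.2 to 68.9% (Cy5) were well above background. The brightest probe stood for a gene. The number of arrays limits the precision. Differences were tested with limma 3.58.1 in R 4.3.3 (lmFit, eBayes, two-sided, Benjamini-Hochberg over all tested genes). The miR-29a array was set against the mean of the other arrays where 5 or more of them measured the gene. Control channels were fitted by line within a design, the 3 PC3 channels of slide 2 being averaged. The code was tested on simulated data.

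The genes named are collagen genes past 1 or -1 on the miR-29a array, at most the 8 largest called differences per pair of lines, the extremes of each array, and genes of both lists past the limit. Some genes of the fixed lists are not reported here by name. The members and lists were chosen with earlier results of these data known. Alternatives covered background correction, normalization, probe choice, filters, slide as a block, leaving out arrays and, chosen after seeing the data, the experiment as a block for lines that share experiments. Sequences are from RefSeq (GRCh38.p14), used for sequences only.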

Additional observations from a re-analysis of the deposited data

Results flagged for a closer look

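COL5A2 had ratios of opposite sign with wogonin in the 2 squamous lines, a log2 ratio of -1.55 in SAS and 1.504 in FaDu, a gap of 3.06. With 1 array per line the difference was not tested. In SAS both channels were above background (log2 signal 11.48 in the DMSO control and 9.92 with wogonin). In FaDu the control signal of 3.98 was not above background and the treated signal was 5.49. That treated signal lay within the range of the 3 FaDu control channels, 3.98 to 6.38.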

How the results depend on the processing

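Over 14 counts of collagen genes, 138 of 162 alternatives stayed within 1.5 times the reported count. Counts in this section are given without shares of all genes and show only how far the reported numbers move. On the miR-29a array, a limit of 0.5 in place of 1 gave 14 lower and 2 higher. In the comparison with the other treatments the number called lower was 1, COL4A1, after normexp with loess, without background correction, without the filter on dim probes and with each treatment its own group. It stayed 0 without both other SAS arrays, an alternative chosen after seeing the data. Set against the other SAS arrays alone, COL12A1 reversed to 0.14 and COL4A4 to 0.56. The ratio of COL4A4 on the miR-29a array was -0.47 after either change of background correction. In control RNA, the number lower in SAS than FaDu was 1 after normexp and 1 to 3 with a channel left out. For DU145 against PC3 the number higher was 2 to 4 with a channel left out on the first design. On the second, the number lower was 5 after 75th percentile scaling and 4 to 4 with a channel left out, and the number higher was 2 after normexp, 2 with the mean over probes and 1 to 2 with a channel left out. For 786O against PC3, leaving out a channel gave 2 to 9 higher and 3 to 12 lower. Of 472 alternatives for single genes in control RNA, 434 kept their call, 38 lost it and 0 reversed. The causes were not tested, beyond fewer samples where a channel was left out. With the experiment as a replicate block, chosen after seeing the data, 8 were higher and 1 lower in SAS than FaDu, 2 higher and 11 lower in DU145 than PC3 on the first design and 2 and 11 on the second, not all of them the genes called without the block. For the other comparisons no paired analysis was possible because the lines share no experiment, or the treatment has 1 array. Genes near background have only a bound, and a lone array gives no error between cultures.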
